A study of Mus musculus with 2 samples.

Results

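The genes described here are 10 ligands and receptors of the VEGF and angiopoietin systems, taken by symbol from the 31053 genes of the files: the ligands Vegfa, Vegfc, Pgf and Angpt2, the receptors Kdr, Flt1, Flt4 and Tek, and the co-receptors Nrp1 and Nrp2. Their levels were read across endothelial subtypes and endocardial, lymphatic, mural and fibroblast barcodes of mouse hearts, which were classed by marker UMIs that include none of the 10. A UMI is a tag by which each captured RNA molecule is counted once. The study compared hearts of db/db mice, which carry the Lepr mutation on both copies and received 1% salt, with hearts of db/+ mice, which carry it on 1 copy and for which the labels name no treatment. Lepr encodes the leptin receptor, and its loss on both copies is known to cause obesity and diabetes; the series title presents these mice as modelling HFpEF, heart failure in which the ejection fraction is preserved. The db mutation changes the splicing of Lepr, so counts per gene from 3' ends do not check the genotype labels. Genotype and salt differ together between the groups and cannot be told apart.

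Each group was 1 library of the 10x Genomics kind (kit 3' v3.1), prepared from cells depleted of cardiomyocytes by filtering and of CD45-positive leukocytes by magnetic beads. The design text gives 4 male hearts per genotype; the sources used here do not give the age, the strain background or any pooling of the hearts. With 1 library per group there is no replicate check: no test was run, and every interval below covers counting error only.

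VEGF-A is the main growth and survival signal of blood endothelium and acts mostly through the receptor tyrosine kinase KDR, while FLT1 binds VEGF-A and placental growth factor tightly and can act as a decoy. VEGF-C acts through FLT4 and drives lymphatic growth, and the neuropilins NRP1 and NRP2 bind VEGFs together with these receptors and also serve semaphorins. ANGPT2 is an endothelial ligand of TEK, the receptor also called TIE2 that keeps vessels quiet when ANGPT1 from perivascular cells binds it.

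The promoters of the 4 receptors are shown because their levels were higher together in endothelial-like cells of the db/db and salt library. Each is the 250 bases before and 50 bases after the gene's start in RefSeq, on GRCm38.p6, 5′ to 3′ on the gene's own strand. Capitals mark GGAAG, a form of the core bound by ETS factors, or its reverse complement CTTCC. The windows are chr5:75978406-75978705 on the minus strand for Kdr, chr5:147725962-147726261 on the minus strand for Flt1, chr11:49609429-49609728 on the plus strand for Flt4 and chr4:94739039-94739338 on the plus strand for Tek.
Kdr: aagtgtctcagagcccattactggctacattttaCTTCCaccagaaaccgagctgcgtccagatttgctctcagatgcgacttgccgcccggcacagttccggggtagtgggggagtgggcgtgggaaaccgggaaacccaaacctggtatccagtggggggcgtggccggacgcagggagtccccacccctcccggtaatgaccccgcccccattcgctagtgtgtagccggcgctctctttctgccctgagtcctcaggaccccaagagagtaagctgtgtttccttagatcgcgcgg
Flt1: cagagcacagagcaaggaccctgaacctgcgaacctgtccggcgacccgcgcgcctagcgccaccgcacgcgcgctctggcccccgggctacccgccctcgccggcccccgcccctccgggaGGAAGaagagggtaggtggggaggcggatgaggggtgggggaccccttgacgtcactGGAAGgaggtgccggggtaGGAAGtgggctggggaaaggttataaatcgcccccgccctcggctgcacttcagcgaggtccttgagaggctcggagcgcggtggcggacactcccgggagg
Flt4: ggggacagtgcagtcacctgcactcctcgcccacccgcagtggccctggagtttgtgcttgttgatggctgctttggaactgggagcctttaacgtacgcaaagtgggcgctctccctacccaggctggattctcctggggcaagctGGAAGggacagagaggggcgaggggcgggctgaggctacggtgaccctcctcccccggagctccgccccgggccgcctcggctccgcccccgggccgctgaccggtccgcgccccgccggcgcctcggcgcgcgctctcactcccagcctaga
Tek: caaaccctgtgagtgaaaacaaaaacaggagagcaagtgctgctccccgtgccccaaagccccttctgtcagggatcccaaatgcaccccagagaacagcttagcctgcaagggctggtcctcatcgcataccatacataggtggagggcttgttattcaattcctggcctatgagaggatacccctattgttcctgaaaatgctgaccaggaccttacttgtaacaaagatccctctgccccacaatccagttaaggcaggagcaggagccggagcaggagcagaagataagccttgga
The window of Kdr held 1 match to GGAAG on either strand, that of Flt1 held 3, that of Flt4 held 1 and that of Tek held 0. Of 32851 promoter windows in the same table, 71.4% held at least 1 match, so most windows held it. None of the 4 windows held ACGTG, a form of the core of hypoxia response elements, or its reverse complement CACGT, and 19.6% of all windows did. Among the 11 windows found for 9 of the 10 genes, 1 held it, the second window of Vegfa at chr17:46025114-46025413 on the minus strand. That window lies inside the Vegfa gene, which spans chr17:46016993-46032369, and its use as a promoter was not tested. These matches describe letters only. Other forms of both cores, such as GCGTG and GGAA followed by another base, were not counted.

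In the GENCODE M21 annotation of GRCm38, Kdr spans chr5:75932827-75978458 and Flt1 spans chr5:147561604-147726011. Flt4 lies at chr11:49609263-49652739, Tek at chr4:94739289-94874976, Nrp1 at chr8:128358604-128503363 and Nrp2 at chr1:62703285-62818695. The Flt4 window printed above, chr11:49609429-49609728, lies wholly inside this span, so RefSeq and GENCODE place the start of Flt4 differently. The ligand genes are Vegfa at chr17:46016993-46032369, Vegfc at chr8:54077606-54187096, Pgf at chr12:85166635-85177790 and Angpt2 at chr8:18690263-18741562. Flt1 has 2 protein-coding transcripts with 2 distinct 3' ends, and counts per gene do not separate a membrane form from a soluble form. Angpt2 lies within Mcph1 on the opposite strand, Nrp1 hosts Mir1903, and Nrp2 overlaps Gm29083 and Gm37121. The sources used here do not give how the counting treated strand and such overlaps.

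There were 4751 barcodes with 40974634 UMIs for db/db and salt and 5676 barcodes with 44935235 UMIs for db/+, of which 4094 and 4884 barcodes were kept, with a median of 7772 UMIs in db/db and salt and 7048 UMIs in db/+. Of the barcode sequences, 7 occurred in both libraries and 5 of them were kept in both. Endothelial-like cells numbered 2664 in db/db and salt and 3212 in db/+, and fibroblast-like cells 1098 and 1249. The small classes were endocardial-like (44 and 51), lymphatic-like (21 and 28), pericyte-like (64 and 85) and smooth muscle-like cells (43 and 39). Mixed barcodes, 120 in db/db and salt and 179 in db/+, stayed out. All 8 endothelial markers, Pecam1 and Cdh5 among them, were detected in endothelial-like cells of both libraries, at a summed 6734 CPM in db/db and salt and 6340 CPM in db/+, where CPM is the UMIs of a gene per 1000000 UMIs of its class. Haemoglobin genes were 4 of the 10 leading genes of endothelial-like cells; they came from 20 of 2664 barcodes in db/db and salt and 26 of 3212 in db/+ with more than 1% red cell marker UMIs, and without those barcodes the leading genes were Fabp4, Rgcc and Aqp1.

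The ligand transcripts were highest in different classes. Vegfa, the main VEGF receptor 2 ligand, was highest in fibroblast-like cells, at 70.4 CPM in db/db and salt (95% Poisson interval 66.0 to 75.0) and 57.0 CPM in db/+ (52.9 to 61.4). Smooth muscle-like cells came next, at 60.3 CPM in db/db and salt from 28 UMIs and 34.3 CPM in db/+ from 13 UMIs, which overlaps the fibroblast level. Fibroblast-like cells held 71.6% of the Vegfa UMIs of all named classes in db/db and salt and 65.5% in db/+, though cardiomyocytes, removed by the protocol, are a known source of VEGF-A in heart. Venous-like cells had 35.2 CPM in db/db and salt and 32.2 CPM in db/+, arterial-like cells 29.5 and 23.5 CPM, and capillary-like cells 13.3 and 10.6 CPM. Lymphatic-like and pericyte-like cells were lowest, with 2 and 4 Vegfa UMIs in db/db and salt and 4 and 2 in db/+.

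Vegfc, the lymphatic growth factor, was an arterial-like transcript in both libraries. Arterial-like cells had 467 CPM in db/db and salt (442 to 494) and 354 CPM in db/+ (332 to 378), above every other class in each library. Venous-like cells had 257 and 263 CPM, and capillary-like cells 55.5 and 43.8 CPM. Arterial-like cells were 8.06% of kept barcodes in db/db and salt and 8.09% in db/+, yet held 42.2% and 35.6% of the Vegfc UMIs. Lymphatic-like cells, which carry the receptor, had 0 Vegfc UMIs in both libraries; a count of 0 there allows up to 10.2 CPM in db/db and salt and 6.31 CPM in db/+.

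Pgf, the placental growth factor that binds FLT1, was highest in smooth muscle-like cells, angiogenic-like endothelial cells and fibroblast-like cells. The levels were 138, 70.7 and 87.3 CPM in db/db and salt and 95.05, 107 and 88.1 CPM in db/+, in that order of classes. Smooth muscle-like and fibroblast-like levels overlapped in db/+ and did not in db/db and salt. Venous-like cells had 0 Pgf UMIs in both libraries, which allows up to 4.59 CPM in db/db and salt and 2.61 CPM in db/+, and capillary-like cells had 5.09 and 4.01 CPM.

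Angpt2, the TEK ligand known from remodelling vessels, was highest in lymphatic-like cells, at 176 CPM in db/db and salt and 149 CPM in db/+. Those values rest on 9 barcodes in db/db and salt and 10 in db/+, and the barcode with most UMIs gave 26 of 52 and 24 of 71. Without it the levels were 100.1 CPM in db/db and salt (65.4 to 147) and 106 CPM in db/+ (77.5 to 140). Angiogenic-like cells followed, at 61.9 and 56.4 CPM, and smooth muscle-like cells had 53.9 and 63.4 CPM. Smooth muscle-like barcodes without endothelial marker UMIs had 106 CPM in db/db and salt (34.3 to 246) and 102 CPM in db/+ (41.0 to 210), from 5 and 7 UMIs. Those intervals overlap the lymphatic-like ones without the top barcode, so the order of these levels is not settled. Fibroblast-like cells were lowest, at 4.11 CPM in db/db and salt and 4.24 CPM in db/+.

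**Figure D1:**
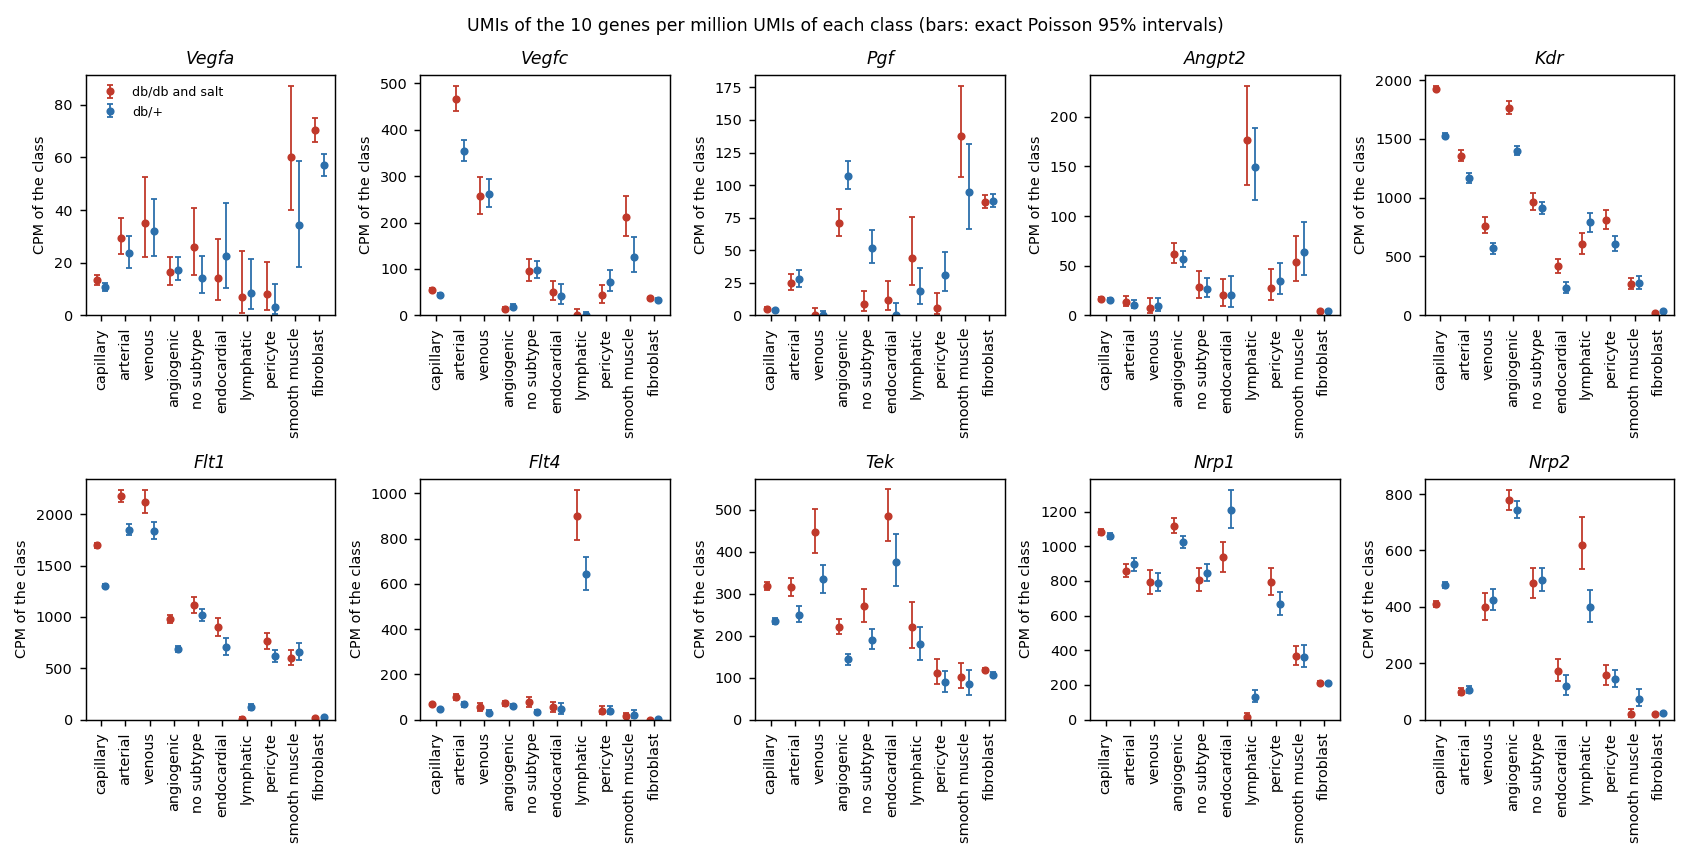
Levels of the 10 genes in 10 classes, as UMIs per 1000000 UMIs of the class (vertical axes start at 0 and differ between genes); points are the 2 libraries and bars exact Poisson 95% intervals. Vegfc stands out in arterial-like cells, at 467 CPM in db/db and salt and 354 CPM in db/+. Flt4 and Angpt2 stand out in lymphatic-like cells, and Kdr and Flt1 across blood endothelial subtypes. Single barcodes gave 26 of the 52 lymphatic-like Angpt2 UMIs in db/db and salt and 24 of 71 in db/+.

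Among the receptors, Kdr, which encodes VEGF receptor 2, was highest in capillary-like cells, at 1927 CPM in db/db and salt (1904 to 1950) and 1528 CPM in db/+ (1509 to 1547). Angiogenic-like cells had 1765 and 1401 CPM and arterial-like cells 1358 and 1166 CPM. Venous-like cells had 763 CPM in db/db and salt and 568 CPM in db/+, and endocardial-like cells had 418 and 231 CPM. Kdr was thus lower in endocardial-like than in venous-like cells in each library, with intervals that did not overlap.

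Flt1, which encodes VEGF receptor 1, ran in another order. It was highest in arterial-like cells, at 2177 CPM in db/db and salt and 1853 CPM in db/+, and in venous-like cells, at 2120 and 1841 CPM; those neighbours did not differ beyond their intervals. Capillary-like cells had 1698 and 1301 CPM, and angiogenic-like cells 981 and 686 CPM. Lymphatic-like cells had 10.2 CPM in db/db and salt, all 3 UMIs in 1 barcode, and 118 CPM in db/+, 56 UMIs in 9 barcodes.

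Flt4, the VEGF-C receptor, had its highest level in lymphatic-like cells. Those few cells held 14.9% of the Flt4 UMIs of all named classes in db/db and salt and 19.3% in db/+. Endothelial-like cells held 81.9% and 76.7%. Lymphatic-like cells had 899 CPM in db/db and salt (794 to 1014) and 642 CPM in db/+ (572 to 718), and 19 of 21 and 26 of 28 of them had a UMI. Blood endothelial subtypes had between 53.5 and 98.2 CPM in db/db and salt and between 31.3 and 66.8 CPM in db/+, arterial-like cells the highest of them in each library. Fibroblast-like cells had 3 UMIs in db/db and salt and 14 in db/+, which is 0.220 and 1.12 CPM.

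Tek, the angiopoietin receptor, was highest in endocardial-like cells, at 484 CPM in db/db and salt and 376 CPM in db/+, and in venous-like cells, at 446 and 334 CPM, with overlapping intervals. Capillary-like cells had 319 and 235 CPM. Fibroblast-like cells also carried Tek, at 118 CPM in db/db and salt (112 to 124) and 107 CPM in db/+ (101 to 113), in 718 and 709 barcodes.

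Of the co-receptors, Nrp1 was broad. Endocardial-like, angiogenic-like and capillary-like cells had 937, 1119 and 1081 CPM in db/db and salt and 1210, 1024 and 1058 CPM in db/+. Pericyte-like cells had 795 and 670 CPM and fibroblast-like cells 213 and 209 CPM, while lymphatic-like cells had 17.0 CPM in db/db and salt and 133 CPM in db/+. Nrp2 was highest in angiogenic-like cells, at 779 CPM in db/db and salt and 745 CPM in db/+, and lower in arterial-like cells, at 98.2 and 106 CPM. Lymphatic-like cells, in which NRP2 is known as the FLT4 co-receptor, had 621 and 400 CPM.

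Mural and fibroblast barcodes also carried endothelial transcripts. All 8 endothelial markers were detected in pericyte-like cells, at a summed 2419 CPM in db/db and salt and 2247 CPM in db/+, and in smooth muscle-like cells, at 2443 and 2205 CPM. In the 22 pericyte-like barcodes of db/db and salt and 27 of db/+ with none of those marker UMIs, Kdr had 2 and 0 UMIs, Flt1 1 and 0 and Tek 0 and 0, against 813, 765 and 111 CPM in all pericyte-like cells of db/db and salt and 606, 617 and 88.6 CPM in those of db/+. Nrp1 stayed at 637 CPM in db/db and salt (489 to 817) and 567 CPM in db/+ (435 to 727) in the same barcodes. These barcodes were picked after the values were seen, and they are shallow, with 97299 UMIs in all in db/db and salt and 109264 in db/+.

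Smooth muscle-like barcodes without endothelial marker UMIs numbered 8 in db/db and salt and 10 in db/+. They held 6 and 6 Pgf UMIs and 5 and 7 Angpt2 UMIs, and 0 Vegfc, 0 Kdr and 0 Tek UMIs in both libraries, so Pgf and Angpt2 were seen there without endothelial markers and Vegfc was not, at a depth where a count of 0 allows up to 63.3 CPM in db/db and salt and 43.7 CPM in db/+. In fibroblast-like barcodes without endothelial marker UMIs, 676 in db/db and salt and 844 in db/+, Tek was at 121 CPM in db/db and salt and 105 CPM in db/+ and close to its level in all fibroblast-like cells, as were Nrp1 (219 and 194 CPM), Pgf (91.0 and 87.8 CPM) and Vegfa (69.0 and 58.1 CPM). Kdr had 10.1 CPM in db/db and salt and 4.07 CPM in db/+ in those fibroblast-like barcodes, against 19.1 and 34.1 CPM in all fibroblast-like cells.

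The comparison of db/db and salt with db/+ asked whether these genes differ with the disease model within each class. In endothelial-like cells the 4 receptors were higher in db/db and salt. Their intervals did not overlap, nor did those of 7 of the 10 genes in all, against 37.3% of 8270 genes with a mean of at least 10 CPM, so at this depth separate intervals are common. Kdr had 1761 CPM in db/db and salt (1743 to 1780) and 1394 CPM in db/+ (1379 to 1409), a ratio of 1.26. Flt1 had 1664 CPM in db/db and salt and 1286 CPM in db/+, a ratio of 1.29. Tek, at 309 and 226 CPM, was 1.36 times higher, and Flt4, at 72.4 CPM in db/db and salt (68.8 to 76.3) and 49.5 CPM in db/+ (46.7 to 52.3), was 1.46 times higher. The co-receptors did not follow. Nrp1 was at 1038 and 1012 CPM, with overlapping intervals, and Nrp2 was lower, at 418 CPM in db/db and salt and 474 CPM in db/+.

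On the scale used for calls, log2 of CPM plus 10 in db/db and salt over CPM plus 10 in db/+, these were 0.34 for Kdr, 0.37 for Flt1, 0.47 for Flt4, 0.43 for Tek, 0.04 for Nrp1 and -0.18 for Nrp2. None of the 10 genes reached 1.5-fold in endothelial-like cells, where 2.08% of the 8270 genes did. At 1.25-fold, a threshold chosen after the values were seen, 5 of the 10 were higher in db/db and salt against 3.64% of all genes, and 1 was lower against 3.68%. Scaling by the median ratio over genes gave 0.27 for Kdr, 0.30 for Flt1 and 0.26 for Vegfc, all below 1.25-fold. TMM scaling gave 0.25, 0.28 and 0.24, also below it. Flt4 and Tek stayed above 1.25-fold, at 0.41 and 0.37 with the first scaling and 0.39 and 0.35 with TMM. The share of genes with a higher log2 ratio was 3.14% for Kdr, 2.26% for Flt1, 1.31% for Tek and 0.979% for Flt4. The median log2 ratio was 0.24 over the 10 genes and 0.054 over all 8270. In bulk sums of a class, more molecules per cell and more cells with the transcript cannot be told apart.

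**Figure D2:**
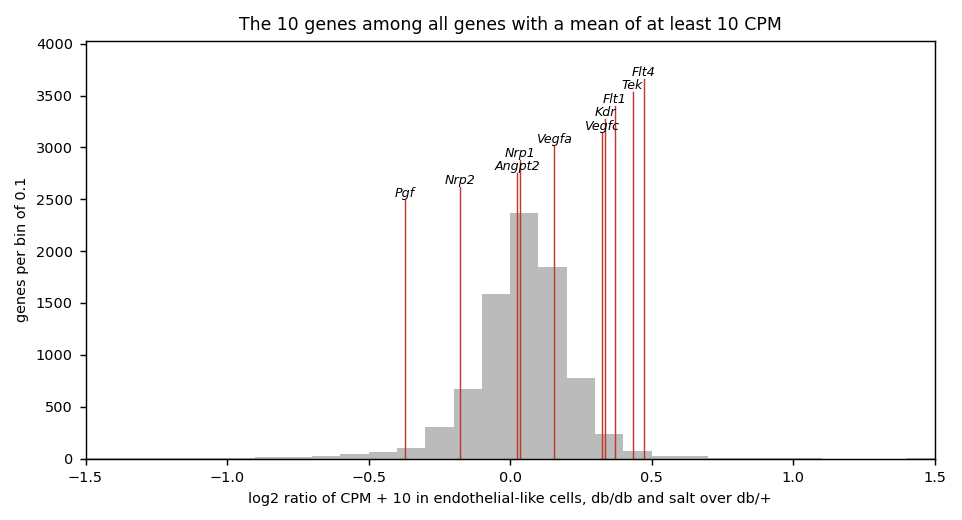
Histogram of the log2 ratios of 8270 genes in endothelial-like cells (horizontal axis, log2 of CPM plus 10 in db/db and salt over db/+, drawn from -1.5 to 1.5; vertical axis, genes per bin of 0.1). Red lines mark the 10 genes: Kdr, Flt1, Flt4, Tek and Vegfc lie between 0.32 and 0.47, Nrp1 and Angpt2 near 0, and Pgf at -0.37.

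The ligands in endothelial-like cells were mixed, and low apart from Vegfc. Vegfc had 112 CPM in db/db and salt (107 to 116) and 87.2 CPM in db/+ (83.6 to 91.0), and Pgf had 15.9 and 23.4 CPM, each with intervals that did not overlap. Vegfa, at 16.9 and 14.2 CPM, and Angpt2, at 21.8 and 21.2 CPM, had overlapping intervals. Their log2 ratios were 0.32 for Vegfc, -0.37 for Pgf, 0.15 for Vegfa and 0.03 for Angpt2. The signs of Angpt2 and Nrp1 turned under scaling by the median ratio over genes and under TMM scaling, which moved the median of all genes by at most 0.071. The value of Vegfc shrank to 0.09 when subtypes were given the same weight and to 0.11 in cells thinned to the same depth, and that of Pgf to -0.14 with the same weights.

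The libraries also differed in other measures of endothelial-like cells. Median depth was 5508 UMIs in db/db and salt and 5439 UMIs in db/+, and the median mitochondrial share was 5.06% and 4.55%. Summed proliferation markers, all 8 detected in both libraries, were at 205 CPM in db/db and salt and 400 CPM in db/+. Without the cells that carried UMIs of at least 3 of those markers, the log2 ratios were 0.32 for Kdr, 0.33 for Flt1, 0.48 for Flt4 and 0.40 for Tek. Without the barcodes above 1% red cell marker UMIs they were 0.33, 0.37, 0.47 and 0.43 in the same order.

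Endothelial-like cells of the libraries also fell into partly different clusters when cells were clustered without the 10 genes. A cluster led by Ubd, Iigp1 and Tgtp2, interferon-inducible genes among them, held 11 endothelial-like cells of db/db and salt and 755 of db/+. Another, led by Cd74, H2-Eb1 and H2-Aa of class II antigen presentation, held 0 and 152. A cluster led by the capillary genes Cyp26b1, Car4 and Ptger4 held 795 cells of db/db and salt and 483 of db/+. Of their cells, 82.5%, 48.1% and 94.1% were capillary-like, in that order of clusters, so different clusters hold much of the capillary-like class in each library.

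The receptor values were also read without the clusters that were almost all of 1 library, a setting chosen after the data were seen, which left 2653 endothelial-like cells of db/db and salt and 2305 of db/+. Kdr then had 1759 and 1382 CPM, Flt1 1663 and 1286 CPM, Tek 309 and 231 CPM and Flt4 72.4 and 49.9 CPM. Those are log2 ratios of 0.35, 0.37, 0.40 and 0.46, close to the values in all endothelial-like cells. Vegfc, at 112 and 99.9 CPM, shrank to 0.15, and Pgf, at 15.9 CPM in db/db and salt (14.2 to 17.7) and 30.7 CPM in db/+ (28.2 to 33.5), went to -0.66 and passed 1.5-fold. Over the 8 clusters with at least 50 endothelial-like cells of each library, Kdr was higher in db/db and salt in 8, with log2 ratios between 0.16 and 0.41, and Flt1, Flt4 and Tek in 7 each. Flt1 in the cluster led by Vwf was at 1867 and 1871 CPM, and was not higher there. Flt4 and Tek were not higher in the cluster led by Spaca6, at -0.07 and -0.04. The cluster led by Mki67, with 41 and 122 cells, was below that size. Kdr there was at 922 CPM in db/db and salt and 963 CPM in db/+, and Flt1 at 544 and 564 CPM, while Flt4 was at 0.22 and Tek at 0.30. In the smaller clusters led by Ubd, Myl3 and Hbb-bs each of these receptors was higher in db/db and salt. Vegfc was higher in 3 of the 8 clusters.

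Within subtypes the receptor values kept their sign. In capillary-like cells, 1897 in db/db and salt and 2124 in db/+, Kdr, Flt1, Flt4 and Tek had log2 ratios of 0.33, 0.38, 0.46 and 0.42, and 0 of 9 measured genes reached 1.5-fold against 2.22% of all genes. Arterial-like cells gave 0.22, 0.23, 0.49 and 0.33, and 0 of 10 reached 1.5-fold against 2.32%. Angiogenic-like cells gave 0.33, 0.51, 0.22 and 0.59. There 1 of 10, Tek, reached 1.5-fold against 3.07%, at 221 CPM in db/db and salt (203 to 240) and 143 CPM in db/+ (131 to 157). In the same cells proliferation markers summed to 472 CPM in db/db and salt and 926 CPM in db/+, and red cell markers to 121 and 3738 CPM. The part of these markers in the Tek value was not tested. In the cluster led by Apln, Kit and Mest, Tek had a log2 ratio of 0.37, below 1.5-fold. Venous-like cells gave 0.42, 0.20, 0.62 and 0.41; 1 of 8, Flt4, reached 1.5-fold against 10.1%, from 35 and 36 UMIs with overlapping intervals. Endothelial-like cells without a subtype, which proliferation genes lead, had 0.09, 0.13, 1.04 and 0.48, and 2 of 10 genes past 1.5-fold against 12.1%, Flt4 higher and Pgf lower. Lymphatic markers summed to 174 CPM there in db/db and salt, with 5 of 6 detected, and to 3.18 CPM in db/+, with 3 of 6 detected and Mmrn1 and Reln at 0, and red cell markers to 14122 and 152 CPM. The part of these markers in the Flt4 value was not tested.

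Vegfc was higher in db/db and salt in arterial-like cells, with a log2 ratio of 0.39, and in capillary-like cells, with 0.28. Its intervals did not overlap in either, but the share of all genes with separate intervals was not computed for these classes. Venous-like cells, at 257 CPM in db/db and salt and 263 CPM in db/+, had overlapping intervals. Over the 8 clusters with at least 50 endothelial-like cells of each library, Vegfc was higher in db/db and salt in 3, with a median log2 ratio of -0.065. Pgf was lower in angiogenic-like cells, at 70.7 CPM in db/db and salt (60.7 to 81.8) and 107 CPM in db/+ (96.6 to 119), and 39 and 69 barcodes carried it. Angiogenic-like cells were 5.54% of kept barcodes in db/db and salt and 6.29% in db/+. Their Angpt2, at 61.9 and 56.4 CPM, had overlapping intervals.

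**Figure D3:**
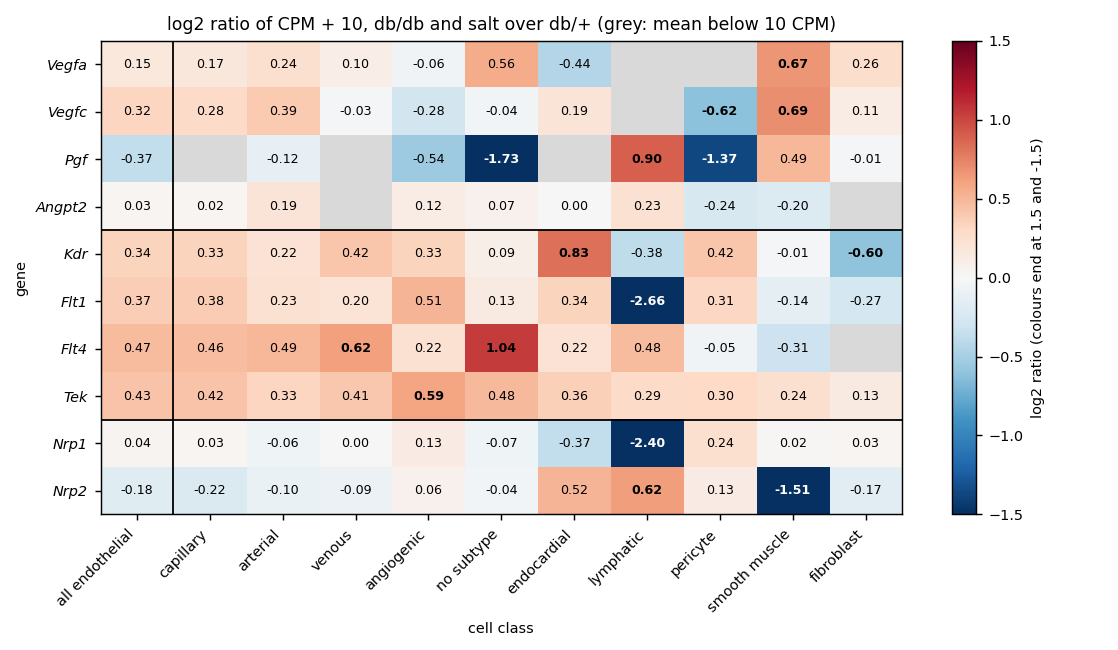
Log2 ratio of CPM plus 10, db/db and salt over db/+, for the 10 genes (rows) in all endothelial-like cells and in 10 classes (columns); bold values are at least 1.5-fold and grey cells have a mean below 10 CPM. Kdr, Flt1, Flt4 and Tek are above 0 in each of the 5 endothelial subtype columns, and the extreme values stand in the small lymphatic, mural and no-subtype classes.

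Shares of cells with a receptor UMI gave the same order of libraries. After every cell was thinned to 1500 UMIs, which left out 107 endothelial-like cells of db/db and salt and 198 of db/+, Kdr was detected in 87.5% of cells in db/db and salt (Clopper-Pearson 95% interval 86.1 to 88.7%) and 81.0% in db/+ (79.5 to 82.4%). Flt1 was detected in 86.9% and 79.6%, Tek in 36.3% and 28.9%, and Flt4 in 11.7% and 7.10%. For each of these receptors the intervals did not overlap, but the share of all genes with separate intervals was not computed for detection. The intervals treat cells as independent, and cells are not replicates. Before thinning the shares of cells were 97.7% and 94.1% for Kdr and 97.7% and 94.5% for Flt1. They were 76.1% and 66.3% for Tek and 35.7% and 27.6% for Flt4. Fibroblast-like cells, which should lack Kdr, Flt1 and Flt4, gave thinned shares of 1.84%, 2.02% and 0% in db/db and salt, where a count of 0 of 1087 cells allows up to 0.276%, and 2.36%, 2.52% and 0.244% in db/+. Their median depth before thinning was 12002 UMIs in db/db and salt and 9655 UMIs in db/+. Vegfc, with 11.8% of endothelial-like cells in db/db and salt and 11.9% in db/+, and Angpt2, with 2.62% and 2.75%, had overlapping intervals.

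**Figure D4:**
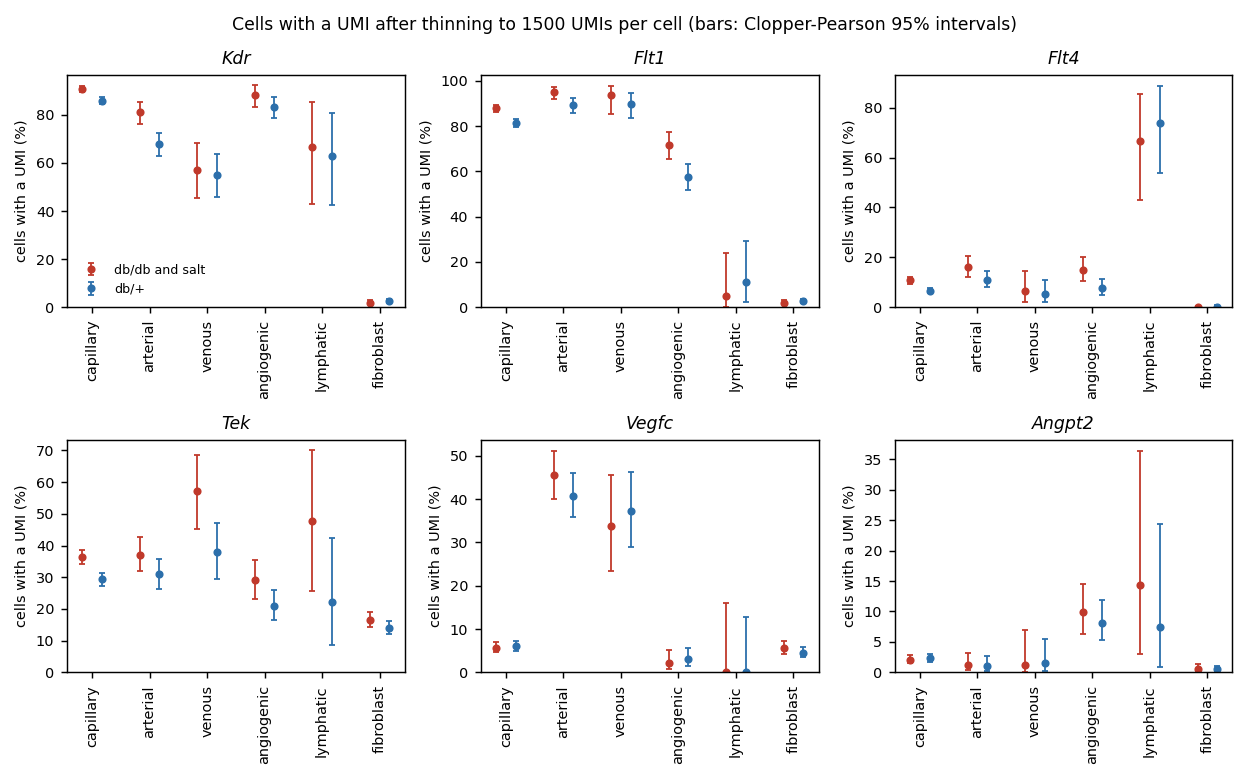
Percent of cells with a UMI of 6 genes in 6 classes after thinning to 1500 UMIs per cell (vertical axes start at 0 and differ between genes); points are the 2 libraries and bars Clopper-Pearson 95% intervals. Capillary-like cells with Kdr were 90.8% in db/db and salt and 86.0% in db/+, and those with Tek 36.3% and 29.4%, while fibroblast-like cells lie near 0 for Kdr, Flt1 and Flt4.

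Within the thinned endothelial-like cells, the share with Nrp2 or Kdr was lower among cells with Vegfc than among the rest, and the share with Flt1 was higher. Nrp2 was found in 23.1% of cells with Vegfc and 38.5% of cells without it in db/db and salt, and in 30.0% and 41.8% in db/+. Kdr was found in 79.2% of cells with Vegfc and 88.6% of cells without it in db/db and salt, and in 68.1% and 82.7% in db/+. Flt1 was found in 93.1% of cells with Vegfc and 86.1% of cells without it in db/db and salt, and in 90.6% and 78.1% in db/+. Those intervals did not overlap in either library. Cells are not replicates, and arterial-like cells, where Vegfc and Flt1 were highest and Nrp2 low, were pooled with the other subtypes here.

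In fibroblast-like cells 1 of 8 measured genes reached 1.5-fold, Kdr, which was lower, against 1.68% of all genes in either direction. It had 19.1 CPM in db/db and salt (16.8 to 21.5) and 34.1 CPM in db/+ (30.9 to 37.5), a log2 ratio of -0.60. The 8 endothelial markers, all detected, summed to 90.8 CPM in db/db and salt and 139 CPM in db/+ in the same cells. Per 100 endothelial marker UMIs, fibroblast-like cells held 21.0 and 24.5 Kdr UMIs and endothelial-like cells 26.1 and 22.0. In the barcodes without those markers the order was turned round: Kdr had 80 UMIs in db/db and salt, or 10.1 CPM (8.02 to 12.6), and 33 UMIs in db/+, or 4.07 CPM (2.80 to 5.72), so its mean there was below the 10 CPM needed for a call; none of the 6 genes above it was past 1.5-fold. Vegfa, at 70.4 and 57.0 CPM, was higher in db/db and salt (log2 ratio 0.26). The intervals of 3 of the 8 genes, Kdr, Flt1 and Vegfa, did not overlap, against 20.7% of all genes. Pgf, at 87.3 and 88.1 CPM, and Nrp1, at 213 and 209 CPM, had overlapping intervals, as had Vegfc and Tek.

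Pericyte-like cells gave 2 of 9 measured genes past 1.5-fold, both lower, against 14.5% of all genes. Pgf had 3 UMIs in db/db and salt and 19 in db/+, which is 5.95 and 31.2 CPM. Vegfc had 22 and 44 UMIs, which is 43.6 CPM in db/db and salt and 72.2 CPM in db/+ with overlapping intervals. Proliferation markers summed to 5.95 CPM in db/db and salt, with 2 of 8 detected and Mki67 and Top2a at 0, and to 133 CPM in db/+ with 8 of 8 detected; their part in these values was not tested. Red cell markers summed to 3240 CPM in db/db and salt and 24.6 CPM in db/+, and 1 of the genes was past 1.5-fold without the barcodes above 1% of them. Pgf had a log2 ratio of -1.37 in all pericyte-like cells and of 0.66 in thinned cells, so its sign turned. With a stricter margin between classes Vegfc was at 38.5 CPM in db/db and salt, 10 UMIs, and 5.42 CPM in db/+, 2 UMIs, so the sign of Vegfc turned too. Kdr, at 0.42 in all pericyte-like cells, went as low as -0.26 and changed sign with the stricter margin and in thinned cells.

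Smooth muscle-like cells gave 3 of 10 past 1.5-fold against 20.2% of all genes. Vegfc had 211 CPM in db/db and salt (171 to 257) and 127 CPM in db/+ (93.4 to 168), Vegfa had 60.3 and 34.3 CPM with overlapping intervals, and Nrp2 had 9 UMIs in db/db and salt and 28 in db/+, or 19.4 and 73.9 CPM. Vegfa in the barcodes without endothelial markers had 1 UMI in db/db and salt and 3 in db/+, with the opposite sign. Fibroblast markers, 8 of 8 detected in both libraries, summed to 366 CPM in db/db and salt and 1684 CPM in db/+ in smooth muscle-like cells. Proliferation markers summed to 6.46 CPM in db/db and salt, with 2 of 8 detected and Mki67 at 0, and 121 CPM in db/+, with 6 of 8. The part of these markers in these values was not tested.

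Endocardial-like cells gave 1 of 9 past 1.5-fold against 18.1%, Kdr, which was at 418 CPM in db/db and salt (363 to 478) and 231 CPM in db/+ (186 to 283). Capillary markers, 6 of 6 detected in both libraries, summed to 422 CPM in db/db and salt and 163 CPM in db/+ in these cells, and endocardial markers, 5 of 5 detected, to 3993 and 5170 CPM; their part in the Kdr value was not tested. Lymphatic-like cells gave 4 of 8 past 1.5-fold against 23.9%. Flt1 and Nrp1 were lower in db/db and salt, with 3 and 5 UMIs there and 56 and 63 in db/+, and without the barcode of most UMIs in each library they had 0 and 2 UMIs in db/db and salt and 44 and 31 in db/+. Nrp2, at 621 CPM in db/db and salt (534 to 717) and 400 CPM in db/+ (345 to 461), was higher, as was Pgf from 13 and 9 UMIs with overlapping intervals. Flt4 was below 1.5-fold, with a log2 ratio of 0.48. Its intervals did not overlap, but the share of all genes with separate intervals was not computed for this class. In the same cells proliferation markers summed to 13.6 CPM in db/db and salt, with 3 of 8 detected, and 204 CPM in db/+, with 8 of 8. Pericyte markers summed to 109 and 234 CPM and lymphatic markers, 5 of 6 detected with Ccl21a at 0, to 6922 and 4546 CPM. Their part in these values was not tested.

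The other genes of the pathways came from 6 lists, and in endothelial-like cells most stayed under 1.5-fold. Of the other ligands and receptors, 2 of 5 were measured: Tie1, the partner receptor of TEK, had 426 CPM in db/db and salt and 391 CPM in db/+, a log2 ratio of 0.12, and Vegfb, a FLT1 ligand, was at 10.3 and 10.8 CPM. Angpt1, the TEK agonist, had 31.4 CPM in db/db and salt and 31.8 CPM in db/+ in fibroblast-like cells, 32.1 CPM from 16 UMIs and 7.52 CPM from 3 UMIs in endocardial-like cells, and 0.249 and 0.408 CPM in endothelial-like cells. Vegfd was likewise found in fibroblast-like cells, at 14.4 and 11.4 CPM, and Angpt4 had 1.10 and 0.960 CPM there and 0 UMIs in endothelial-like cells, which allows up to 0.150 CPM in db/db and salt and 0.122 CPM in db/+. In pericyte-like cells Angpt1 had 0 UMIs in both libraries, which allows up to 5.95 CPM in db/db and salt and 4.93 CPM in db/+.

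Among regulators of these receptors and ligands, 0 of 6 measured reached 1.5-fold in endothelial-like cells, and their median log2 ratio was 0.027. Ptprb, the endothelial phosphatase that acts on TEK and on VEGF receptor 2, had the largest value, at 1460 CPM in db/db and salt (1443 to 1477) and 1031 CPM in db/+ (1018 to 1044), a log2 ratio of 0.50. Dab2, an endocytic adaptor, was at -0.16, Epn1 at 0.12 and Itgav at 0.11. Signal transducers of VEGF receptor 2 gave 0 of 12, with a median of 0.10 and Plcg1, the phospholipase it recruits, at 0.31, Fyn at 0.23, Nck1 at 0.19 and Gab1 at 0.16. Semaphorins and plexins gave 0 of 6, with a median of 0.074, and Sema3f, an NRP2 ligand, was lower, at 40.6 CPM in db/db and salt and 54.1 CPM in db/+, a log2 ratio of -0.34. Sema3g was at 0.29, Plxnd1 at 0.12 and Plxna4 at 0.11.

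Of genes known to be induced by VEGF in cultured endothelium, 1 of 5 measured reached 1.5-fold and was higher: Nr4a1, an immediate early nuclear receptor. Over all the lists that made 1 of 40 measured genes, near the 2.08% of all genes, so the count is no result about the lists. Nr4a1 had 70.4 CPM in db/db and salt (66.8 to 74.2) and 37.9 CPM in db/+ (35.5 to 40.4), a log2 ratio of 0.75. Fibroblast-like cells showed it too, at 114 CPM in db/db and salt and 65.6 CPM in db/+, a log2 ratio of 0.72. Nr4a2 and Dll4, a Notch ligand of tip and arterial cells, were each at 0.31 in endothelial-like cells, and Rcan1, an inhibitor of calcineurin, was at -0.16. Esm1 of this list and Adm of the next also served as angiogenic-like markers. The hypoxia-inducible list had a median of -0.10, with 0 of 9 past 1.5-fold: Epas1, which encodes HIF-2 alpha, was at 0.33, while Pgk1 was at -0.18, Bnip3 at -0.15 and Adm at -0.12.

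**Figure D5:**
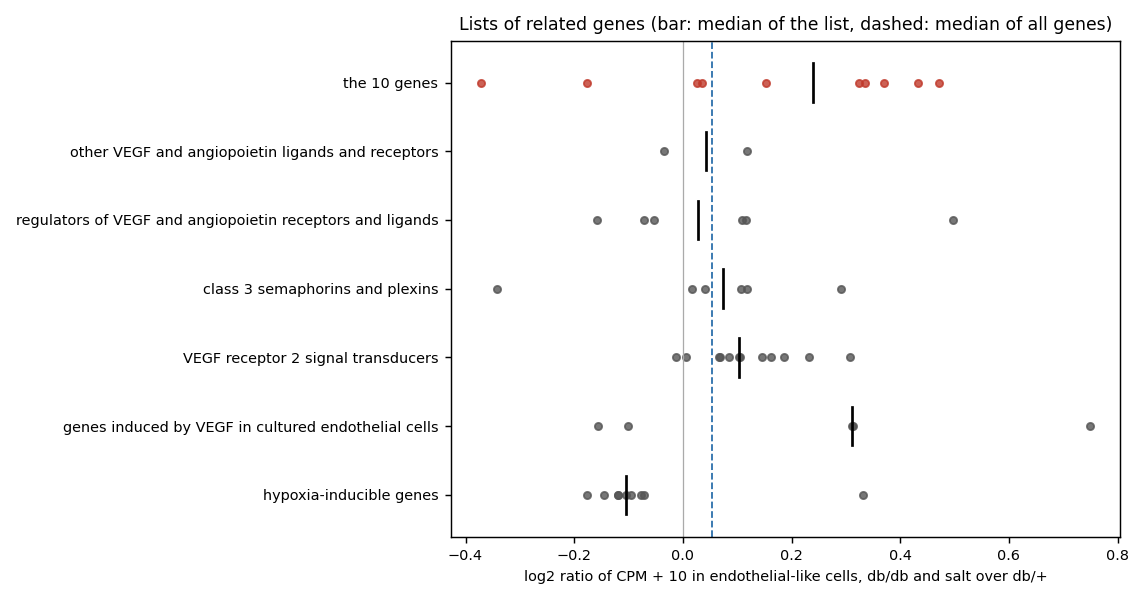
Log2 ratio of CPM plus 10 in endothelial-like cells, db/db and salt over db/+ (horizontal axis), for the 10 genes and for 6 lists of related genes with a mean of at least 10 CPM (rows); each point is a gene, black bars are list medians and the dashed line is the median of all genes, 0.054. Ptprb at 0.50, Nr4a1 at 0.75 and Epas1 at 0.33 stand apart within their lists.

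In the other classes few of the same list genes were past 1.5-fold. Fibroblast-like cells had 1 of 41 measured, Nr4a1, near the 1.68% of all genes, and list medians between -0.088 and 0.18, with a median of 0.024 over all genes. Svep1, an extracellular protein known to bind angiopoietins, was at -0.48 there, Itga9, an integrin chain that binds VEGF-C, at -0.40, and the endothelial gene Ptprb at -0.39. Adm was at -0.28, Sema3b at -0.23, Sema3c at 0.21, Nr4a3 at 0.19, Vegfd at 0.18 and Nck1 at -0.17.

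Pericyte-like cells had 2 of 39 higher, Plcg1 at 0.76 and Nr4a1 at 1.12, and 3 lower, the hypoxia-inducible genes Egln3 at -1.24, Bnip3 at -0.98 and Adm at -0.68. The signs of Plcg1 and Nr4a1 turned in barcodes without endothelial marker UMIs, at -0.89 and -0.48. Smooth muscle-like cells had 5 of 41 higher, Slc2a1 at 1.31, Nck2 at 1.10, Ptprj at 0.91, Itgb3 at 0.71 and Dll4 at 0.65, and 2 lower, Fyn at -0.67 and Ankrd37 at -0.60. With 14.5% and 20.2% of all genes past 1.5-fold in these mural classes, 5 of 39 and 7 of 41 list genes are no result about the lists. Below that size, Akt1 was at 0.53 and Plxna4 at 0.49 in pericyte-like cells, and Itga9 was at 0.57, Tie1 at -0.52 and Plxna2 at 0.51 in smooth muscle-like cells.

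The genes whose class pattern was most like each member were found by Pearson correlation of log2 of CPM plus 10 over 20 points, 10 classes in 2 libraries, among 6053 genes. The points share libraries and differ in depth, so r is a description. Kdr was most like Gimap6 (r = 0.98) and Ushbp1 (0.98), Flt1 like Srgn (0.98) and Plcb1 (0.97), Flt4 like Kctd12 (0.95) and Klhl4 (0.94), and Tek like St3gal1 (0.89) and Npr1 (0.88). For the co-receptors the genes were Jam2 (0.91) and Sp100 (0.89) with Nrp1, and Tpst2 (0.96) and Gngt2 (0.94) with Nrp2. For the ligands they were Fos (0.84) and Fbln2 (0.82) with Vegfa, Fgfr3 (0.91) and Itpr3 (0.86) with Vegfc, Spg21 (0.82) and Etf1 (0.77) with Pgf, and Lims1 (0.83) and Cox4i1 (0.82) with Angpt2. Between members the highest values were 0.86 for Nrp1 and Flt1, 0.77 for Nrp2 and Kdr and 0.70 for Flt4 and Angpt2.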

How the data were processed

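The files hold UMI counts as deposited, raw and per gene, written by Cell Ranger 6.0.2 per the file headers. The submitters' processing notes name Cell Ranger, Seurat and GRCm38 (mm10); the sources used here give neither the annotation release nor how barcodes were chosen. No barcode held fewer than 500 UMIs in db/db and salt or 502 UMIs in db/+.

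A barcode was kept with at least 500 detected genes and no more than 10% mitochondrial UMIs (13 genes). Scrublet (in scanpy 1.11.5, Python 3.11.15) marked 50 doublets in db/db and salt and 64 in db/+, 1.21% and 1.29%, which were removed. Each barcode took the class with the highest mean log score over its markers if it led the next class by 0.5, with thresholds set after the data were seen; otherwise it was called mixed. UMIs were summed per class and library, which amounts to 20043824 UMIs in db/db and salt and 24522416 UMIs in db/+ for endothelial-like cells, and 464144 and 378756 UMIs for smooth muscle-like cells, so single genes are less precise in the small classes. A difference is log2 of CPM plus 10 over CPM plus 10, so ratios of low genes are understated; a call is 1.5-fold with a mean of at least 10 CPM. Intervals are exact Poisson or Clopper-Pearson at 95%, and a count of 0 allows up to 3 counts. With 1 library per group there is no test.

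The text names the 10 genes in every class, up to 4 genes of each pathway list with the largest absolute ratio in endothelial-like, fibroblast-like, pericyte-like and smooth muscle-like cells, all other ligands and receptors, and the 2 genes most like each of the 10. In mural and fibroblast-like cells those of the largest values are printed. The members, the lists and the classes were chosen with earlier results of these data known. Alternatives were other scalings (TMM from edgeR 4.0.16 in R 4.3.3), pseudocounts, filters, class rules, thinning to 1500 UMIs and Leiden clusters. The steps were tested on simulated data.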

Additional observations from a re-analysis of the deposited data

Results flagged for a closer look

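Vegfc had opposite signs in the mural classes. Its log2 ratio was 0.69 in smooth muscle-like cells, at 211 CPM in db/db and salt and 127 CPM in db/+, and -0.62 in pericyte-like cells, at 43.6 CPM in db/db and salt and 72.2 CPM in db/+. The difference between the classes was not tested, since each group has 1 library. Pericyte-like Vegfc rests on 22 and 44 UMIs, and no smooth muscle-like barcode without endothelial marker UMIs held Vegfc in either library.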

How the results depend on the processing

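No paired analysis was possible because each group has 1 library and the labels give no replicate numbers; for the same reason no library could be left out. In endothelial-like cells the count of members past 1.5-fold was 0 under every setting except thinning and the setting without clusters almost all of 1 library, which each gave 1. The log2 ratios there ranged from 0.25 to 0.37 for Kdr, 0.28 to 0.38 for Flt1, 0.30 to 0.62 for Flt4, 0.35 to 0.45 for Tek, 0.09 to 0.35 for Vegfc and -0.66 to -0.14 for Pgf. In fibroblast-like cells the count of 1 became 0 with a pseudocount of 50 CPM, a mean of at least 50 CPM, mitochondrial UMIs up to 20%, doublets kept, a stricter margin, thinning, Leiden clusters, or barcodes without endothelial marker UMIs. In pericyte-like cells the count of 2 became 0 with a pseudocount of 50 CPM, 1 with a mean of at least 50 CPM, 5 with Leiden clusters, 4 without endothelial marker UMIs and 1 without barcodes above 1% red cell marker UMIs. A stricter margin and thinning each gave 3 in these cells. In smooth muscle-like cells the count of 3 became 1 with a pseudocount of 50 CPM or a mean of at least 50 CPM, and Leiden clustering gave no such class. That count became 2 with mitochondrial UMIs up to 20%, a stricter margin, or barcodes without endothelial marker UMIs. Among values past 1.5-fold, signs turned for pericyte-like Vegfc (1.65 with a stricter margin, 0.52 thinned, 1.85 with Leiden clusters), Pgf (0.66 thinned), Plcg1 (-1.31 thinned, -0.89 without endothelial marker UMIs) and Nr4a1 (-0.48 without them), and for smooth muscle-like Vegfa (-0.79 without them) and Ankrd37 (0.74 thinned, 0.34 without them). The signs of smaller mural values turned too: in pericyte-like cells Kdr went as low as -0.26, Tek as low as -0.33 and Nrp2 as low as -0.98 (5 settings), and Flt4 as high as 0.24 (3 settings). In smooth muscle-like cells Angpt2 reached 0.54 (4 settings), Kdr 0.49 (3), Flt1 2.38 (2) and Flt4 0.01 (1), and Nrp1 was as low as -0.46 (4). In fibroblast-like cells Nrp2 reached 0.20 and Pgf 0.05, and Nrp1 was lowest at -0.005. The cause was not tested. The settings on endothelial marker UMIs, red cell marker UMIs and clusters of 1 library were chosen after seeing the data.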
